A study of Rattus norvegicus with 3 samples.

Results

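Adrenergic receptors are the cell-surface receptors through which noradrenaline and adrenaline act. A list of 8 rat genes was looked for by symbol, and 7 were found among the 16629 genes and regions of the deposited table: the alpha-1 receptors Adra1a, Adra1b and Adra1d, the alpha-2 receptors Adra2b and Adra2c, and the beta receptors Adrb1 and Adrb3. Adra2a was not analysed here. Each of the 7 had 1 entry, and no other entry overlapped its span.

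The receptors were measured in 3 libraries of polyadenylated RNA from adult Sprague-Dawley rats, for which the labels name no genetic change or drug, kept on a daily cycle of 14 h light and 10 h dark. The glands came from midnight, zeitgeber time (ZT) 19, where time is counted in hours from lights on, and from midday, ZT7. The third library, also from ZT7, was a pool of equal RNA amounts from 15 other tissues (adrenal gland, small intestine, skeletal muscle, kidney, lung, liver, heart, pituitary, retina, spinal cord, hindbrain, hypothalamus, midbrain, cerebellum and cortex), so a receptor confined to 1 of them is diluted there. Each group had 1 library. The labels do not state how many glands or animals stand behind a library. Without replicates no p-value can be given, and every difference below is a size with no replicate check.

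The pineal gland is reached by sympathetic nerve fibres that release noradrenaline at night. In the rat, beta-1 receptors couple to the G protein Gs, which raises cyclic AMP, and alpha-1B receptors couple to Gq, which raises calcium and activates protein kinase C. Both signals act together to induce the enzyme Aanat and thereby melatonin synthesis, and alpha-2 receptors couple to Gi, which lowers cyclic AMP.

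The promoters of the members with the highest pineal transcript levels, Adrb1 and Adra1b, are shown because both genes were high in the gland and both stood higher at night. Neither night difference reached 2-fold. The sequences are the 250 bases before the RefSeq start in the GRCr8 build, and all values in this report come from the authors' rn4 tables. Adrb1 lies on the plus strand (chr1:265776853-265777102) and Adra1b on the minus strand (chr10:28814348-28814597). Capitals mark matches to the motifs TGACG (a short core of the cyclic AMP response element) and TGANGTCA (the full element with 1 free base, which contains TGACG where that base is C), which were searched on both strands together with CACGTG (an E-box bound by clock proteins) and TAATCC (a site bound by the homeobox factors Crx and Otx2).
Adrb1: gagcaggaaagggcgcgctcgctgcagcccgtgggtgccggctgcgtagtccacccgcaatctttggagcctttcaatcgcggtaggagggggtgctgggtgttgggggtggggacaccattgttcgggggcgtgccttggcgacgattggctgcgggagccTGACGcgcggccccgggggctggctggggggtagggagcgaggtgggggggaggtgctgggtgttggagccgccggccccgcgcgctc
Adra1b: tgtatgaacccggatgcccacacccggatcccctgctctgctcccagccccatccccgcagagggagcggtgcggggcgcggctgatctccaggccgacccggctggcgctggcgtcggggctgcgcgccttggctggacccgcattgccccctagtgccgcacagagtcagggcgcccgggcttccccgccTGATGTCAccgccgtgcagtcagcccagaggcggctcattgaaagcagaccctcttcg

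The Adrb1 promoter held TGACG, whose first base lay 88 bases before the start, and 18.2% of 33469 rat promoters of this length hold that motif. The Adra1b promoter held a TGANGTCA match with its first base 58 bases before the start, a motif found in 8.88% of promoters. The match in Adrb1 was to the short core alone and the match in Adra1b to the longer pattern, so the pair shared none of the 4 motifs. Neither promoter held CACGTG (5.59% of promoters) or TAATCC (6.34%) in this window. Both were rich in G and C, at 72% in Adrb1 and 70.8% in Adra1b, against a median of 51.2% over all promoters. Promoters of Adra1d, Adra2b and Adra2c, also in the table, held none of the 4 motifs. TGACG and TGANGTCA were thus each in 1 of 5 member promoters, beside 18.2% and 8.88% of all promoters. With so few promoters, and a pair picked by its levels, this is no measure of a difference between the members. A match is a description of the letters and was not tested as a binding site.

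Levels are given as FPKM, as the authors deposited them: fragments per kilobase of transcript, scaled to all mapped fragments of the library. Division by transcript length lets genes be set side by side. The pineal libraries carried pinealocyte markers: 10 of 11 listed markers exceeded the mixed tissues by 4-fold or more both at ZT19 and at ZT7. Of all genes compared, 3.09% did so at ZT19 and 2.29% at ZT7. The summed marker levels were 8614 FPKM at ZT19 and 7130 FPKM at ZT7, against 116 FPKM in the mixed tissues. This list was chosen with earlier results of these data known. Depth was estimated from 1322 single-exon chemosensory receptor models, most of them listed at 0, whose smallest values step by 1 fragment. By this estimate 1 FPKM on 1 kb corresponded to 5.29 fragments at ZT19 (from 4 models), 8.74 at ZT7 (22 models) and 9.66 in the mixed tissues (22 models). The ZT19 library was thus the shallowest. Some genes that every cell uses were listed near 0, such as Gapdh at 0.404, 0.139 and 0.0707 FPKM in the ZT19, ZT7 and mixed-tissue libraries, so a value of 0 can be a failed estimate and is given below only as listed.

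Adrb1, the beta-1 receptor (chr1:263025655-263027055, rn4, a gene without introns whose model spans 1401 bp), was the most abundant adrenergic receptor transcript of the gland. It stood at 133 FPKM at ZT19 and 84.7 FPKM at ZT7, against 2.74 FPKM in the mixed tissues. At ZT19 98.8% of all genes in the table had a lower value and at ZT7 97.8%, against 39.9% in the mixed tissues. The estimated fragments were 985 at ZT19, 1037 at ZT7 and 37 in the mixed tissues, which gives exact 95% Poisson bounds of 125 to 141 FPKM, 79.6 to 90.0 FPKM and 1.93 to 3.77 FPKM. The bounds of the 3 libraries did not overlap. These bounds cover counting error alone. They leave out the difference between animals and the error of the depth estimate, which at ZT19 rests on 4 models.

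Adra1b, the alpha-1B receptor (chr10:28889092-28946889, rn4), was second in the gland. It stood at 60.1 FPKM at ZT19 and 33.9 FPKM at ZT7, against 3.56 FPKM in the mixed tissues, where it was the highest of the 7. Its value exceeded that of 96.0% of genes at ZT19 and 92.0% at ZT7, against 44.0% in the mixed tissues. Adra1b has an intron and its transcript length is not given in the files, so its fragments and counting bounds could not be computed.

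**Figure D1:**
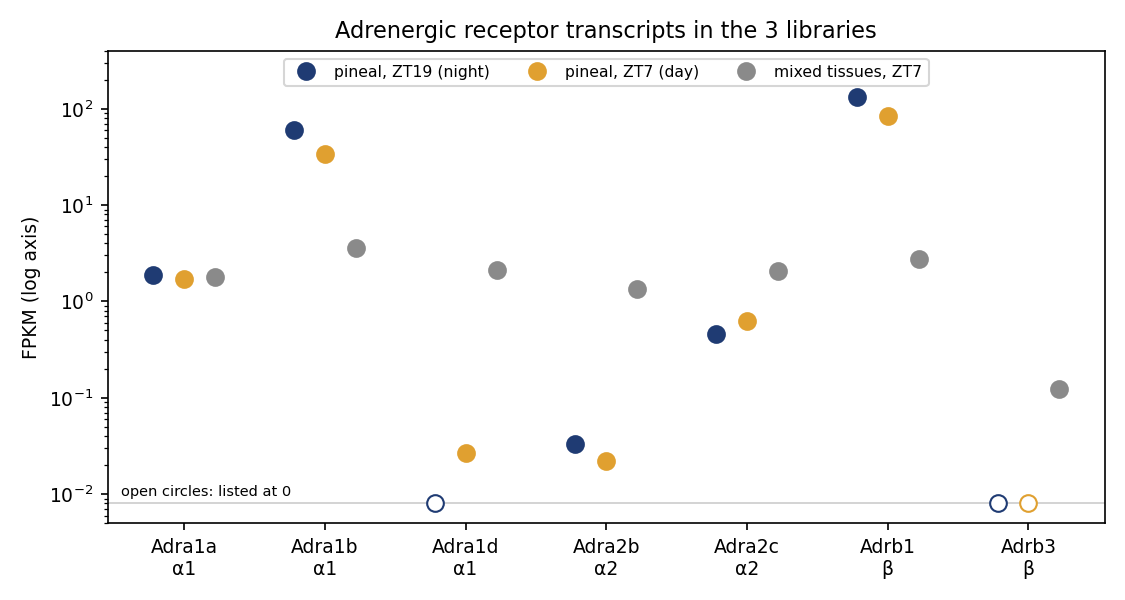
FPKM (log axis) of the 7 adrenergic receptors in pineal glands at ZT19 and ZT7 and in mixed tissues at ZT7, 1 point per library; open circles are listed at 0. Adrb1 and Adra1b stand at 33.9 FPKM or more in both pineal libraries, and the next receptor there, Adra1a, reaches 1.87 FPKM.

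Adra1a, the alpha-1A receptor, which acts in blood vessels, liver and brain (chr15:46173429-46263198, rn4), had nearly the same level everywhere. It stood at 1.87 FPKM at ZT19 and 1.71 FPKM at ZT7, against 1.78 FPKM in the mixed tissues. It came next after Adra1b in both pineal libraries, far below it in each.

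Adra1d, the alpha-1D receptor, a contractile receptor of large arteries (chr3:119279974-119295985, rn4), was listed at 0 FPKM at ZT19 and at 0.0267 FPKM at ZT7, against 2.14 FPKM in the mixed tissues. Of the alpha-1 receptors it was the one with a far lower listing in the gland than in the pooled tissues.

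Of the alpha-2 receptors, Adra2c (chr14:81107907-81109610, rn4) restrains transmitter release in brain and adrenal gland. It stood at 0.457 FPKM at ZT19 and 0.628 FPKM at ZT7, against 2.05 FPKM in the mixed tissues. Those values rest on an estimated 4, 9 and 34 fragments. The counting bounds of both pineal libraries (0.121 to 1.14 FPKM at ZT19 and 0.276 to 1.15 FPKM at ZT7) overlapped each other and lay below those of the mixed tissues (1.43 to 2.89 FPKM).

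Adra2b, another alpha-2 receptor (chr3:114867357-114871403, rn4), stood at 0.0330 FPKM at ZT19 and 0.0222 FPKM at ZT7, against 1.34 FPKM in the mixed tissues. By the depth estimate this rounds to 1 fragment at ZT19 and 1 at ZT7, against 52 in the mixed tissues. The pineal values were under the floor of 3 fragments, which for this transcript is 0.140 FPKM at ZT19 and 0.0848 FPKM at ZT7. Adrb3, the beta-3 receptor of adipose tissue (chr16:69163620-69166384, rn4), was listed at 0 FPKM in both pineal libraries and at 0.125 FPKM in the mixed tissues. It was the lowest member in each library, at ZT19 together with Adra1d.

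The make-up of the receptor family therefore differed between gland and pool. Adrb1 and Adra1b together held 98.8% of the summed FPKM of the 7 members at ZT19 and 98.0% at ZT7, against 45.9% in the mixed tissues. Summed over the 7, the level was 195 FPKM at ZT19 and 121 FPKM at ZT7, against 13.7 FPKM in the mixed tissues. The other 5 members together gave 2.36 FPKM at ZT19 and 2.39 FPKM at ZT7, against 7.43 FPKM in the mixed tissues, so the gland's excess lay in Adrb1 and Adra1b.

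Grouped by the G protein they use, the Gs-coupled beta receptors held 68.0% of the sum at ZT19 and 70.0% at ZT7, against 20.9% in the mixed tissues. The Gq-coupled alpha-1 receptors held 31.7% at ZT19 and 29.5% at ZT7, against 54.4% in the mixed tissues. The Gi-coupled alpha-2 receptors held 0.251% at ZT19 and 0.538% at ZT7, against 24.7% in the mixed tissues. The ratio of Adrb1 to Adra1b was 2.21 at ZT19 and 2.50 at ZT7, so beta-1 transcripts exceeded alpha-1B transcripts at both times, whereas in the mixed tissues it was 0.770. In that pool 5 of the 7 members each held at least 10% of the sum, against 2 in either pineal library. Because no other tissue was sequenced singly, the even spread in the pool is an average over 15 tissues and need not hold in any 1 of them.

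**Figure D2:**
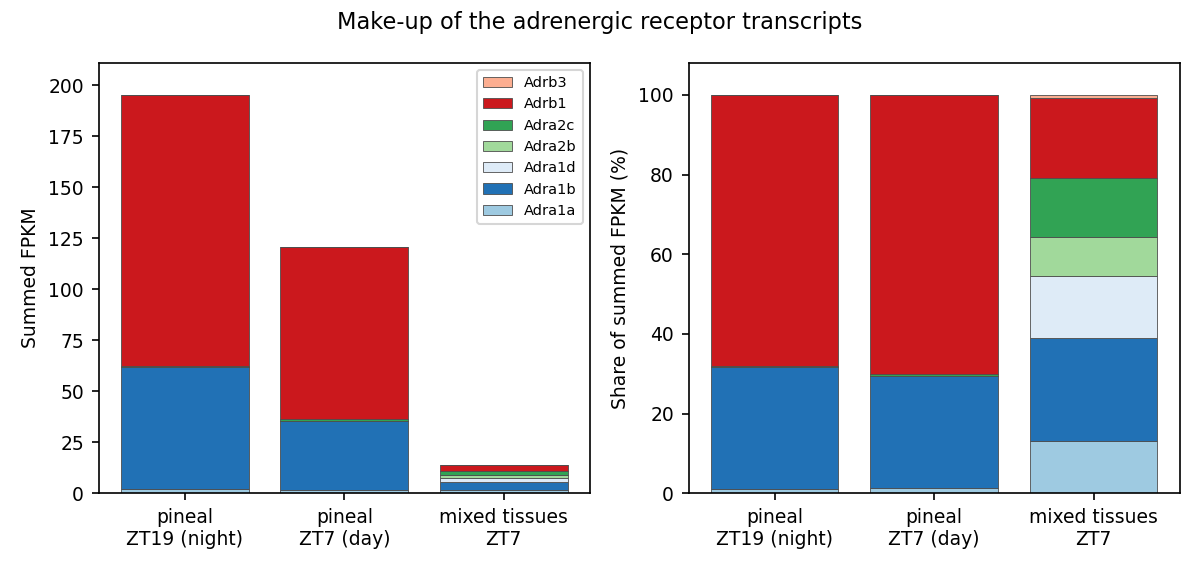
Stacked bars of the 7 receptors' summed FPKM (left) and of each receptor's share of that sum in percent (right) for pineal ZT19, pineal ZT7 and mixed tissues ZT7, 1 library each. Adrb1 and Adra1b fill 98.8% and 98.0% of the pineal bars and 45.9% of the mixed-tissue bar.

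Levels at night were compared with those by day in the gland. Ratios are log2 ratios of FPKM + 1, a scale that understates fold changes of low values, for genes at 1 FPKM or more in either library. Adra1b was 1.77-fold higher in FPKM at ZT19 (log2 ratio 0.81) and Adrb1 1.57-fold higher (log2 ratio 0.64; exact 95% counting interval of the fold 1.44 to 1.71). Adra1a had a log2 ratio of 0.08. None of these 3 members reached 2-fold, a size that 4.18% of 9826 genes and regions reached on the higher side and 2.11% on the lower side. The median of all genes compared was -0.11, and relative to it Adra1b lay 0.92, Adrb1 0.75 and Adra1a 0.19 higher. The Adra1b ratio was above that of 94.5% of genes compared and the Adrb1 ratio above that of 92.6%.

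The remaining 4 members were under 1 FPKM in both pineal libraries and were not compared. Of these Adra2c had a ZT19 value 0.728 times that at ZT7, with a counting interval of 0.165 to 2.63, so a night difference was not detectable at this depth.

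Markers of cell types were set side by side between the pineal libraries as well. Among pinealocyte markers 9 of 11 were higher at ZT19, and the median log2 ratio of the 11 was 0.75, beside -0.11 for all genes compared. The 2 past 2-fold were Aanat (762 FPKM at ZT19 and 5.34 FPKM at ZT7) and Bsx (493 and 60.6 FPKM). Over all genes compared 4.18% were higher by this fold. The homeobox factors Crx (421 FPKM at ZT19 and 237 FPKM at ZT7) and Otx2 (337 and 189 FPKM) were higher at night, while Tph1, the first enzyme of serotonin synthesis, was at 4245 and 4665 FPKM. All 6 astrocyte markers found were lower at ZT19, with sums of 150 FPKM at ZT19 and 200 FPKM at ZT7. So were 7 of 8 oligodendrocyte and Schwann cell markers (sums 27.5 and 43.3 FPKM), 6 of 7 fibroblast markers (211 and 277 FPKM) and 6 of 6 mural cell markers (50.6 and 62.0 FPKM). The same held for 5 of 7 microglial markers (28.0 and 34.8 FPKM), 3 of 5 endothelial markers (17.5 and 20.9 FPKM) and 4 of 6 neuronal markers. The median of all genes compared was -0.11, so most genes were lower at ZT19 too. A majority of lower markers alone therefore sets no cell type apart. The counts include markers under 1 FPKM in both libraries, such as Mog and Tubb3. The neuronal sums were nearly equal (1226 FPKM at ZT19 and 1224 FPKM at ZT7). Most of each was Snap25, at 1217 and 1213 FPKM. Mobp was listed at 0 at ZT19, and Cldn5 at both times. The part of cell make-up in the night values of Adrb1 and Adra1b was not tested. In whole glands, more cells of a type and more RNA per cell cannot be told apart.

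Relative to the tissue pool, which was also from ZT7, the gland at ZT7 had 30.9-fold more Adrb1 (log2 ratio 4.52; exact 95% counting interval of the fold 22.3 to 44.2) and 9.53-fold more Adra1b (log2 ratio 2.94). These were the 2 of 6 members compared that were at least 4-fold higher, a size reached by 2.29% of 11934 genes and regions. No member was at least 4-fold lower on the FPKM + 1 scale, against 13.2% of genes. Of the 6, only Adra1b (3.56 FPKM in the pool) was high enough there for such a call. The 0 is therefore no measure of depletion. The median log2 ratio of the 6 was -0.47, beside -0.27 for all genes compared. Relative to that general shift Adrb1 lay 4.79 and Adra1b 3.21 higher. Adrb1 exceeded 99.8% of genes in this ratio and Adra1b 99.2%.

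The other members lay at or below the level of the mixed tissues. Adra1d had a log2 ratio of -1.61, Adra2b of -1.19 and Adra2c of -0.90. All of these were under 1 FPKM in the gland and were compared through their pool value alone, so the filter set their direction. In FPKM alone Adra2b at ZT7 was 0.0166 times the mixed-tissue level (counting interval 0.000528 to 0.124) and Adra2c 0.307 times (0.123 to 0.622). Adra1d and Adra2b were past 4-fold lower with a pseudocount of 0.1 in place of 1. Adra1a had a log2 ratio of -0.04 that became 0.24 with the libraries centred on their median, so its direction is not set.

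At ZT19, which differs from the pool in both tissue and time, the same 2 of 6 members were at least 4-fold higher. Adrb1 was 48.5-fold higher in FPKM (log2 ratio 5.16; counting interval of the fold 35.0 to 69.4) and Adra1b 16.9-fold higher (log2 ratio 3.75). Of 11951 genes and regions compared, 3.09% passed this fold on the higher side and 14.4% on the lower side, and their median log2 ratio was -0.36. In counts these were 369 higher and 1725 lower, against 548 higher and 1286 lower with the libraries centred on that median. The members' median was -0.51. None was 4-fold lower, a call that again only Adra1b was high enough in the pool to receive. Adra2c stood at 0.223 times the mixed-tissue level (0.0554 to 0.602). Both pineal comparisons use the same mixed-tissue library and are therefore not independent.

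**Figure D3:**
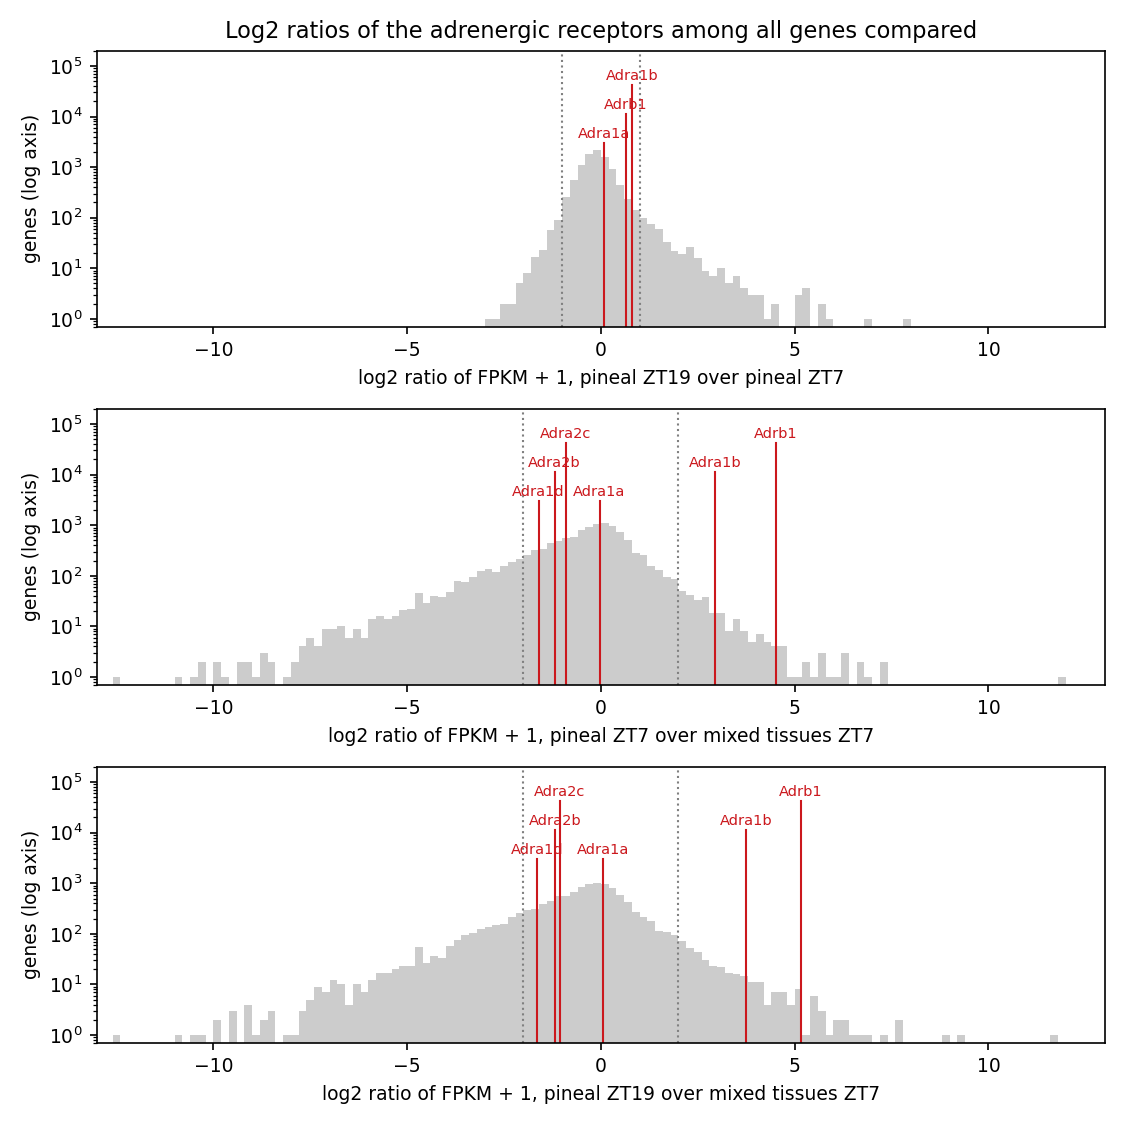
Histograms of log2 ratios of FPKM + 1 for all genes compared (grey; gene counts on a log axis), with adrenergic receptors as red lines and the 2-fold (top) or 4-fold (middle, bottom) limits dotted. Adrb1 and Adra1b lie inside the limits for ZT19 over ZT7 and far to the right of them against the mixed tissues.

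The mixed tissues gave levels within a narrow band for most members. From high to low they were Adra1b, Adrb1, Adra1d, Adra2c, Adra1a, Adra2b and Adrb3. Among the members without introns the counting bounds of Adrb1 and Adra2c overlapped, as did those of Adra2c and Adra2b (0.994 to 1.74 FPKM). Those of Adrb1 and Adra2b did not. In the gland the order was Adrb1, Adra1b, Adra1a, Adra2c, then Adra2b and Adra1d near or at 0, and Adrb3 at 0.

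Receptors for dopamine, serotonin, histamine and acetylcholine belong to the same superfamily, and 26 of a list of 27 were found. Only 2 of the 26 reached 1 FPKM at ZT19 and 1 at ZT7, against 14 in the mixed tissues. Over all 16629 genes and regions, 9392 reached 1 FPKM at ZT19, 9581 at ZT7 and 11682 in the mixed tissues. Among the 33 receptors combined Adrb1 ranked 1 and Adra1b 2 in both pineal libraries, against ranks of 10 and 6 in the mixed tissues. Adrb1 and Adra1b held 75.3% of the summed FPKM of these receptors at ZT19 and 91.6% at ZT7, against 8.48% in the mixed tissues.

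The receptor next in level was Drd4, a Gi-coupled dopamine receptor, at 57.1 FPKM at ZT19 and 6.36 FPKM at ZT7 (log2 ratio 2.98), against 4.09 FPKM in the mixed tissues. Drd1a, a Gs-coupled dopamine receptor, stood at 2.13 FPKM at ZT19 and 0.0423 FPKM at ZT7 (log2 ratio 1.59). These were the 2 genes of the list that could be compared between night and day, and both passed 2-fold, which Adrb1 and Adra1b did not reach. By this fold 4.18% of all genes compared were higher. Drd1a was compared through its ZT19 value alone, which set its direction, and no longer passed with a pseudocount of 5. At ZT19 Drd4 was close to Adra1b (60.1 FPKM), whereas at ZT7 it was well below it (33.9 FPKM). Against the mixed tissues at ZT7, 4 of 14 amine and acetylcholine receptors compared were at least 4-fold lower and 0 higher: Htr2c, a serotonin receptor (0.0239 FPKM in the gland and 13.2 FPKM in the pool), Chrm2, a muscarinic receptor (0.0892 and 8.0025 FPKM), Hrh3, a histamine receptor (0 and 6.89 FPKM), and Drd2, a dopamine receptor (0.0957 and 6.28 FPKM). Over all genes compared the shares were 13.2% lower and 2.29% higher. Of the 14 only Drd4 reached 1 FPKM in the gland at ZT7. The others were compared through their pool value alone, which set their direction, so the count is no measure of depletion. At ZT19 the same 4 receptors were lower than the pool and 1 was higher, Drd4 (log2 ratio 3.51). Of all genes compared at ZT19, 14.4% were lower and 3.09% higher by this fold. The ZT7 count of 4 became 13 with a pseudocount of 0.1 and 0 with one of 5. With 1 library per group, the difference between the lists was not tested.

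**Figure D4:**
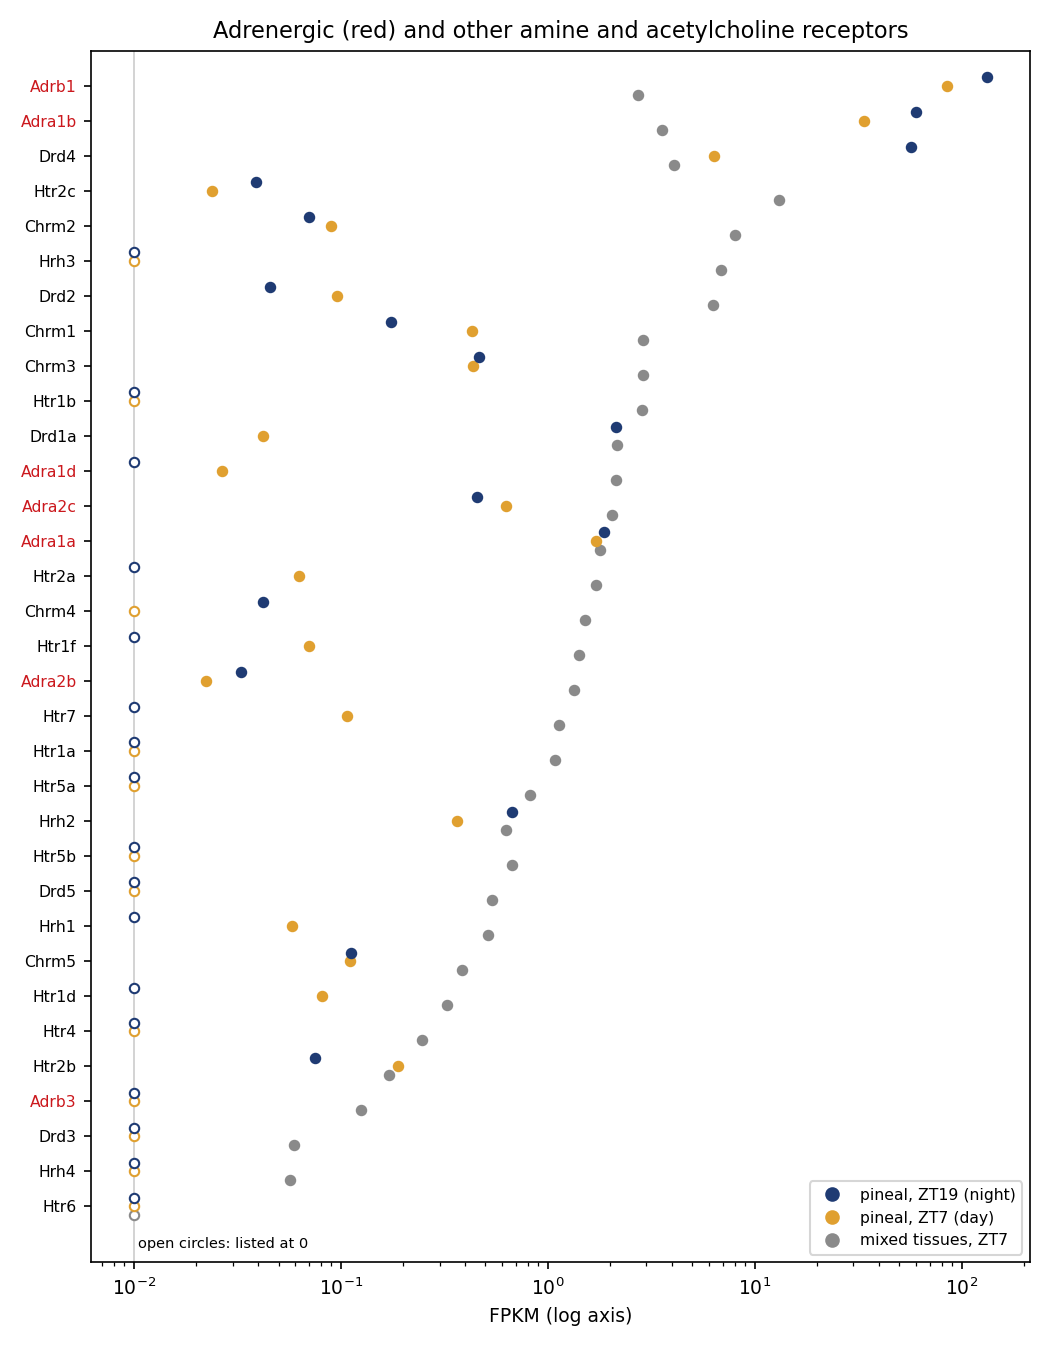
FPKM (log axis) of the 7 adrenergic receptors (red names) and 26 other amine and acetylcholine receptors in pineal ZT19, pineal ZT7 and mixed-tissue libraries, sorted by their highest value; open circles are listed at 0. Adrb1, Adra1b and Drd4 lead in the gland, and most other receptors are under 1 FPKM there.

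Among genes that make, store and remove noradrenaline, Th, Dbh and Slc6a2 were listed low in the gland. Th, which encodes the rate-limiting enzyme of catecholamine synthesis, was listed at 0 FPKM at ZT19 and 0.0486 FPKM at ZT7, against 8.04 FPKM in the mixed tissues. Dbh, which converts dopamine to noradrenaline, stood at 0.0546 and 0 FPKM in the pineal libraries, against 2.38 FPKM in the pool. Slc6a2, the noradrenaline transporter, was listed at 0 in both, against 0.845 FPKM. Sympathetic fibres reach the gland from cell bodies outside it. Whether this bears on the low listings was not tested, and a listing near 0 can be a failed estimate.

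Of 9 genes of this list found, 7 could be compared at ZT7 with the pool: 1 was at least 4-fold higher and 2 lower. The higher one was Ddc, the decarboxylase shared by catecholamine and serotonin synthesis (171 FPKM in the gland and 11.99 FPKM in the pool, log2 ratio 3.73), which is also on the pinealocyte marker list. Over all genes compared 2.29% were higher and 13.2% lower by this fold. Th, compared through its pool value alone, and Maoa, a monoamine oxidase (3.93 and 21.4 FPKM, log2 ratio -2.18), were lower. Maoa no longer passed with centred or rescaled libraries, and neither passed with a pseudocount of 5. Maob, the other monoamine oxidase, stood at 42.7 FPKM in the gland and 18.1 FPKM in the pool. Between night and day 0 of 6 passed 2-fold, beside 4.18% higher and 2.11% lower over all genes compared.

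Among G protein alpha subunits, phospholipases and calcium release channels, 17 of 17 were found. By night 2 of 14 compared were at least 2-fold higher and 0 lower, beside 4.18% higher and 2.11% lower over all genes compared. Itpr1, a calcium release channel opened by the second messenger of Gq signalling, stood at 57.9 FPKM at ZT19 and 21.5 FPKM at ZT7 (log2 ratio 1.39). Gnaz, a Gi family subunit, stood at 4.10 and 1.31 FPKM (log2 ratio 1.14), and did not pass with a pseudocount of 5. Gnaq, the Gq subunit that serves alpha-1 receptors, stood at 21.6 and 14.5 FPKM and Plcb4, a phospholipase downstream of it, at 22.7 and 14.6 FPKM, both within 2-fold. The list median was 0.04, beside -0.11 for all genes.

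Against the mixed tissues at ZT7, 0 of 16 signalling genes were at least 4-fold higher and 3 were lower, namely Gnai1 (3.91 and 32.8 FPKM), Gnaz and Gnas. Over all genes compared 2.29% were higher and 13.2% lower by this fold, so a count of 3 in 16 is near the general rate. Gnaz no longer passed with centred or rescaled libraries or with a pseudocount of 5. Gnas, which encodes the Gs subunit used by beta receptors, was listed at 0.122 FPKM in the gland and 22.0 FPKM in the pool, and its listing in the gland may be a failed estimate. Gnai2 (102 and 103 FPKM) and Gnai3 (24.6 and 26.5 FPKM), further Gi subunits, had like levels in both.

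Kinases and arrestins that shut off the receptors were all found, 7 of 7. By night 0 of 7 passed 2-fold, beside 4.18% higher and 2.11% lower over all genes compared. Adrbk1, the beta-adrenergic receptor kinase, stood at 17.7 FPKM at ZT19 and 14.9 FPKM at ZT7, against 31.1 FPKM in the mixed tissues. Arrb1, an arrestin, stood at 2.91 and 5.02 FPKM, against 14.8 FPKM. At ZT7 0 of 7 passed 4-fold against the pool, with a list median of -1.02 beside -0.27 for all genes. Over all genes compared 2.29% were higher and 13.2% lower by this fold. At ZT19 Arrb1 alone was at least 4-fold lower than the pool (log2 ratio -2.02), beside 14.4% of genes. It no longer passed with centred or rescaled libraries or with a pseudocount of 5. The kinases and arrestins thus did not share the 30.9-fold and 9.53-fold excess of Adrb1 and Adra1b.

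**Figure D5:**
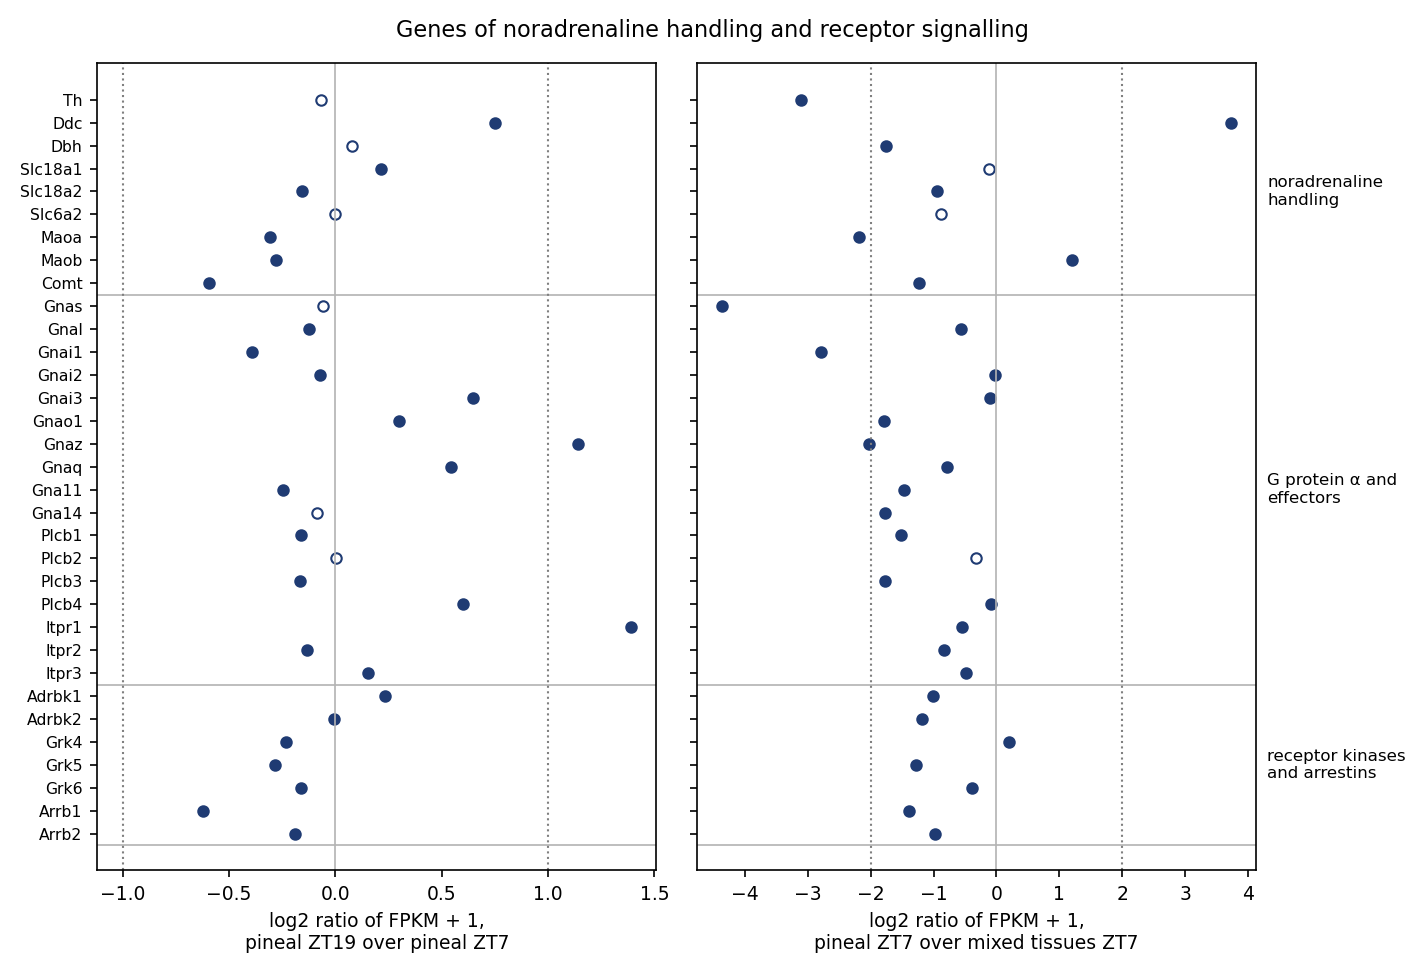
Log2 ratios of FPKM + 1 for genes of noradrenaline handling, G protein signalling and receptor shut-off, pineal ZT19 over pineal ZT7 (left) and pineal ZT7 over mixed tissues (right), 1 library each; open circles are under 1 FPKM in both libraries, dotted lines mark 2-fold (left) and 4-fold (right). Itpr1 and Gnaz pass 2-fold by night, and Ddc is the 1 gene past 4-fold higher against the pool.

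Genes whose levels were most like those of the abundant members were found by the distance between log2(FPKM + 1) values over the 3 libraries. Closest to Adra1b was Efna5, an ephrin ligand, at 59.3 FPKM at ZT19, 33.2 FPKM at ZT7 and 3.76 FPKM in the mixed tissues (distance 0.07). Mak, a kinase of photoreceptor and sperm cilia, followed at 45.1, 33.1 and 4.45 FPKM (distance 0.48), and B3galt2, a galactosyltransferase, at 84.4, 32.1 and 4.26 FPKM (distance 0.53). Adrb1 had no such close neighbour. Its nearest genes were Prss53, a serine protease (distance 0.80), Kcnh6, a potassium channel (0.82), and Pla2g5, a phospholipase (0.85). All 3 were lower at ZT19 than at ZT7, unlike Adrb1, with Prss53 at 80.1 and 101 FPKM, Kcnh6 at 87.1 and 108 FPKM and Pla2g5 at 89.3 and 112 FPKM. With 3 libraries this likeness is a description of levels.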

How the data were processed

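Values are FPKM computed by the authors, per the file headers. TopHat 1.3.1, Cufflinks 1.2.0 and the rn4 build are named in the submitters' processing notes, without options or filters. Per the labels' protocols, poly(A) RNA was fragmented, randomly primed and sequenced from both ends; FPKM is scaled to each library's total, so very abundant transcripts lower the rest. No reads were processed here.

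The deposited table held 17089 entries; those sharing a symbol were summed, giving 16629 genes and regions. It was identical to the files per sample in 51267 of 51267 values. Starts were shifted to count from 1. Ratios are log2 of FPKM + 1 for genes at 1 FPKM or more in either library; called means 2-fold for night against day and 4-fold against the mixed tissues. Fragments were estimated as described with the depth; Poisson and Clopper-Pearson intervals (95%) cover counting error only, and PCR reads are not independent molecules. Scripts (Python 3.11.15, pandas 2.3.3, scipy 1.17.1) were tested on simulated data. Promoter sequences are from RefSeq, GRCr8; 5 of the 7 members had one.

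The members and the 12 gene lists (122 entries, 115 found) were chosen with earlier results of these data known. Named genes are all members, list genes past a fold and up to 4 others per list, and the 3 nearest genes of each member at 5 FPKM or more. Other pseudocounts, filters and scalings were tried.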

Additional observations from a re-analysis of the deposited data

How the results depend on the processing

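Each comparison was repeated with a pseudocount of 0.1 or 5, no filter on low values, a filter at 5 FPKM, libraries centred on the median log2 ratio, and FPKM rescaled without the 20 highest genes. Adrb1 and Adra1b stayed the 2 members at least 4-fold above the mixed tissues in all of these, at ZT19 and at ZT7. Adrb1 ranged from 3.53 to 4.90 (log2) at ZT7 and from 4.16 to 5.55 at ZT19, and Adra1b from 2.18 to 3.22 and from 2.93 to 4.11. The count of members at least 4-fold lower was 0 except with a pseudocount of 0.1. There it was 2 at ZT7 and 2 at ZT19, Adra1d and Adra2b both times. A smaller pseudocount widens ratios of low values by construction. With a pseudocount of 1, all members but Adra1b were too low in the pool to be called lower. For ZT19 over ZT7 0 members passed 2-fold under every setting, with Adra1b at 0.74 to 0.92 and Adrb1 at 0.61 to 0.75. The filter at 5 FPKM leaves only Adrb1 and Adra1b. Over all genes compared, night against day gave 411 higher and 207 lower, but 533 and 518 with a pseudocount of 0.1, 231 and 64 with one of 5, and 481 and 153 after centring. ZT7 against the pool gave 273 and 1581, but 424 and 2611 or 156 and 522 with these pseudocounts. ZT19 against the pool gave 369 and 1725, but 492 and 2831 or 207 and 553. No paired analysis was possible because each group had 1 library, and no library could be left out. Depth limits Adra2b and Adra2c, with 1 to 9 estimated fragments in the pineal libraries.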
